A study of Mus musculus with 18 samples.

Results

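The change from fetal to weaned interscapular brown fat under a maternal fish oil diet was measured by RNA sequencing in 6 of the series' 18 mouse samples, chosen by their age and diet labels: 3 fetal and 3 weaned. All 6 came from C57BL/6 mice whose mothers were on the fish oil diet. The fetal samples were taken before birth and so were exposed to it in pregnancy only, and the weaned ones, taken at 3 weeks of age, in pregnancy and lactation; age and length of exposure cannot be told apart. A matched set of 3 fetal and 3 weaned samples from mothers on the control diet served for comparison, and the 6 adult samples were not compared here. The labels give no sex, litter or pooling for any sample, and nothing in them says that replicates are separate animals, so p-values measure only the spread between these samples.

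Brown fat burns fuel to make heat: uncoupling protein 1 (Ucp1) lets protons back across the inner mitochondrial membrane without making ATP. Its adipocytes arise from a lineage shared with skeletal muscle, fill with lipid droplets and mitochondria late in gestation, and are driven after birth by noradrenaline acting on beta-adrenergic receptors. Mature brown adipocytes also make fatty acids from glucose, store them as triglyceride and release them again as fuel.

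The 6 libraries held 10146103 to 16263663 counts on genes. Between 58.07% and 59.23% of fetal counts and between 65.89% and 69.13% of weaned counts lay on mitochondrially encoded genes, most of them on the 16S ribosomal RNA mt-Rnr2. Levels are given as CPM, counts scaled to the same total in each library, after TMM scaling, a correction that holds the bulk of genes level between libraries. Weaned replicate 1 stood apart from weaned replicates 2 and 3: it lay at -57.9 on the second principal component, which carried 15.4% of the variance, and they lay at 21.1 and 22.9. The biological coefficient of variation was 9.21% among fetal and 27.5% among weaned libraries. Sex-linked genes differed between the ages: Xist, the RNA of the inactive X chromosome, stood at 202.5, 8.27 and 179.7 unscaled CPM in the fetal libraries and at 1.95, 0.69 and 0.745 in the weaned, while Y-linked Ddx3y was counted in all 6. Fetal replicates 1 and 3 thus held much Xist and Y-linked RNA at once, with Ddx3y at 96.3 and 94.5 unscaled CPM. Whether these libraries pooled both sexes is not in the labels. The part of sex in any change below was not tested.

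Of 13668 genes tested, 4786 (35%) passed an adjusted p of 0.05 by edgeR's quasi-likelihood test: 2523 (18.5%) were higher at weaning and 2263 (16.6%) lower. At least 2-fold changes made up 1315 (9.62%) of the genes tested on the higher side and 1308 (9.57%) on the lower. The median change over all genes tested was 0.01 on the log2 scale. Under scaling by library size alone that median moved to -0.599 and 12.1% of calls were higher in place of 52.7%, so changes below are relative to the bulk of genes. The count of calls was 6974 without weaned replicate 1 and 2635 to 2956 without any 1 of the fetal libraries.

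Enzymes of fuel, drug and hormone metabolism were among the 15 genes named for the largest rises. Cyp2b10, a cytochrome P450, read 0.692, 1.61 and 0.783 CPM in the 3 fetal libraries and 151, 69.8 and 115 CPM in the weaned, a log2 change of 6.73 ± 0.42 (SE; adjusted p = 8.30e-05). Acot11, an acyl-CoA thioesterase, read 3.51, 4.19 and 3.6 CPM in the fetal and 74, 315 and 372 CPM in the weaned libraries (log2 change 6.06, adjusted p = 4.30e-04). Gys2, a glycogen synthase, rose by 6.02 (adjusted p = 3.39e-05), and Hsd11b1, which regenerates active glucocorticoid, by 5.33 (adjusted p = 7.35e-05). The rule that named these genes required that fetal and weaned values not overlap. Over all genes tested, 25.2% had every weaned library above every fetal one and 26% every one below. Of the 4786 genes called, 4714 had no overlap, so its absence adds little for a called gene, here and below. Among the 15 named for the largest falls, Myh8, the perinatal myosin heavy chain, went from 207, 320.4 and 381 CPM to 8.97, 0.891 and 1.17 CPM (log2 change -6.34, adjusted p = 0.00113), and Capn6, a calpain family member, changed by -5.75 (adjusted p = 2.54e-05). Beside these, Xist changed by -6.25 (adjusted p = 0.00522).

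**Figure D1:**
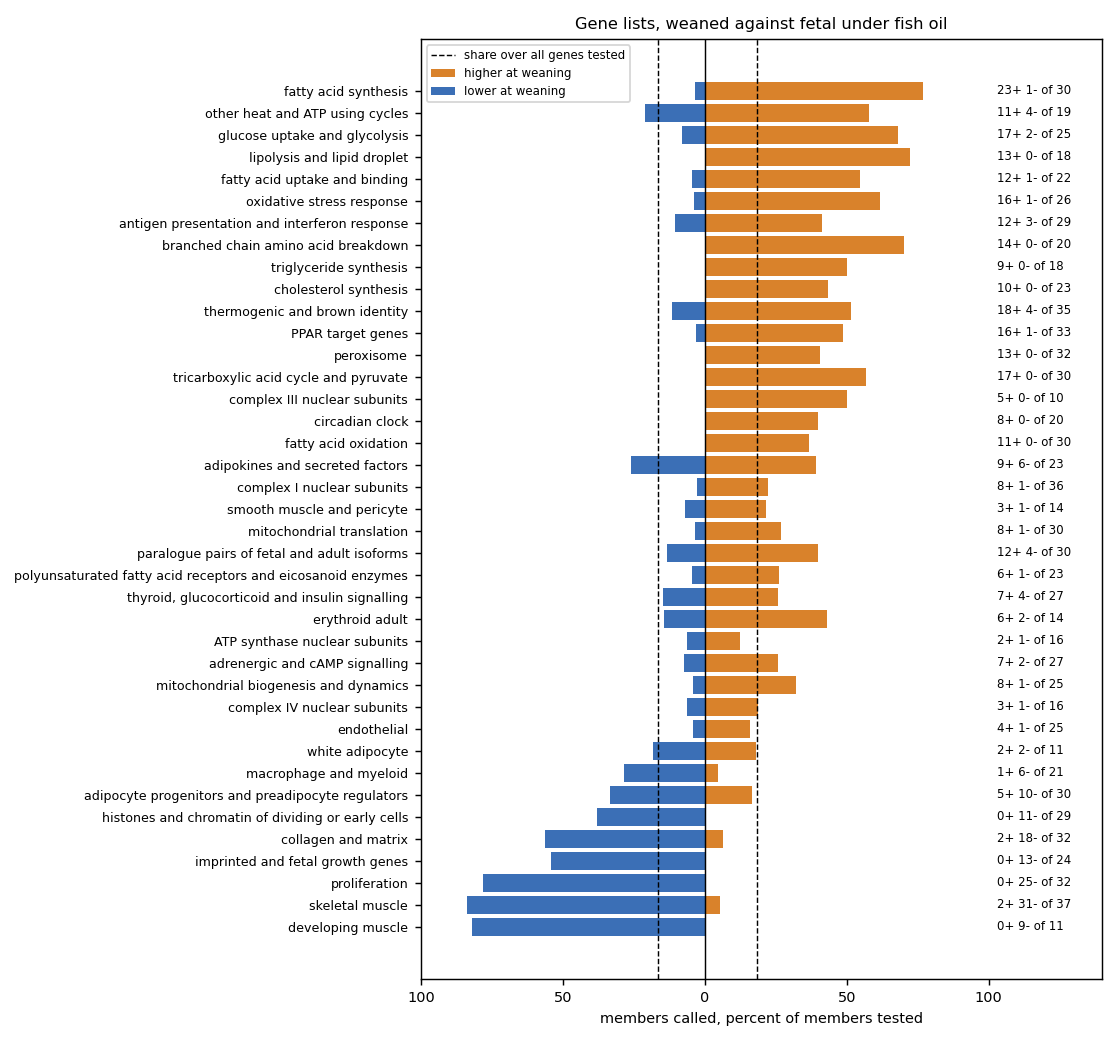
Share of the tested members of each gene list called higher (orange, to the right) or lower (blue, to the left) at weaning under fish oil, for lists with at least 10 members tested, ordered by median change; numbers at the right give members higher, lower and tested, and dashed lines mark the shares over all genes tested, 18.5% and 16.6%. Fatty acid synthesis (23 higher of 30) stands at the top and the muscle lists at the bottom.

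The defining markers of brown fat, Ucp1, Cidea, Ppargc1a, Prdm16, Adipoq, Fabp4, Plin1 and Cox7a1, were all among the genes tested. More genes of thermogenesis were higher at weaning than lower, while several transcriptional regulators fell. Of 37 genes of thermogenesis and brown identity, 35 passed the filter on low counts; 18 rose, 4 fell and 13 did not pass, with a median log2 change of 0.63. Scaled by library size alone, 11 rose and 10 fell, with a median of 0.08. The list had 21 higher and 8 lower without weaned replicate 1. Summed over the list, fetal libraries held 4206, 3777 and 3461 CPM and weaned libraries 7494, 6132 and 8095 CPM. Ucp1 read 1402, 1300.5 and 969 CPM in the fetal and 3538, 2737 and 4657 CPM in the weaned libraries. Every weaned value lay above every fetal one, a 2.97-fold rise (log2 change 1.57 ± 0.22, adjusted p = 0.0018).

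The members that rose included the following, of which Otop1 and Kcnk3 were chosen after their values were seen. Otop1, a proton channel, read 15.9, 11 and 12.3 CPM in the fetal and 72.9, 71.1 and 85.7 CPM in the weaned libraries (log2 change 2.55, adjusted p = 9.24e-05). Clstn3, whose adipocyte product sits at the lipid droplet, went from 5.49, 4.57 and 3.6 CPM to 58.9, 48.6 and 49.2 CPM (log2 change 3.50, adjusted p = 4.45e-05). Kcnk3, a potassium channel, rose by 1.39 (adjusted p = 0.00334), Prdm16, a brown fat co-regulator, by 1.06 (adjusted p = 0.00869), and Cebpb, an adipogenic factor, by 1.39 (adjusted p = 7.50e-04). For all of these the weaned libraries lay above the fetal. In the other direction, Irf4, a transcription factor of the thermogenic program, read 239, 206 and 231 CPM in the fetal and 27.4, 8.43 and 12.2 CPM in the weaned libraries (log2 change -3.81, adjusted p = 5.53e-04). Zfp516, a zinc finger activator of Ucp1, changed by -1.10 (adjusted p = 0.00237), and Ebf2, which marks brown precursors, by -0.76 (adjusted p = 0.00253).

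Other markers of the tissue did not pass the test. Cidea, a lipid droplet protein abundant in brown fat, read 631, 596 and 654 CPM in the fetal and 583, 582 and 479 CPM in the weaned libraries (log2 change -0.20, adjusted p = 0.26). Ppargc1a, a coactivator of mitochondrial genes, had a log2 change of -0.10 (adjusted p = 0.778) with all 6 libraries and -0.41 (adjusted p = 0.0462) without weaned replicate 1. Dio2, which activates thyroid hormone, read 126, 84.9 and 68.3 CPM in the fetal and 322, 53.6 and 57.4 CPM in the weaned libraries. The weaned values lay on both sides of the fetal ones: the log2 change was 0.63 (adjusted p = 0.482) with all 6 libraries and -0.75 (adjusted p = 0.0124) without weaned replicate 1. Adipoq, the adipocyte hormone adiponectin, had a change of 0.31 (adjusted p = 0.1).

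**Figure D2:**
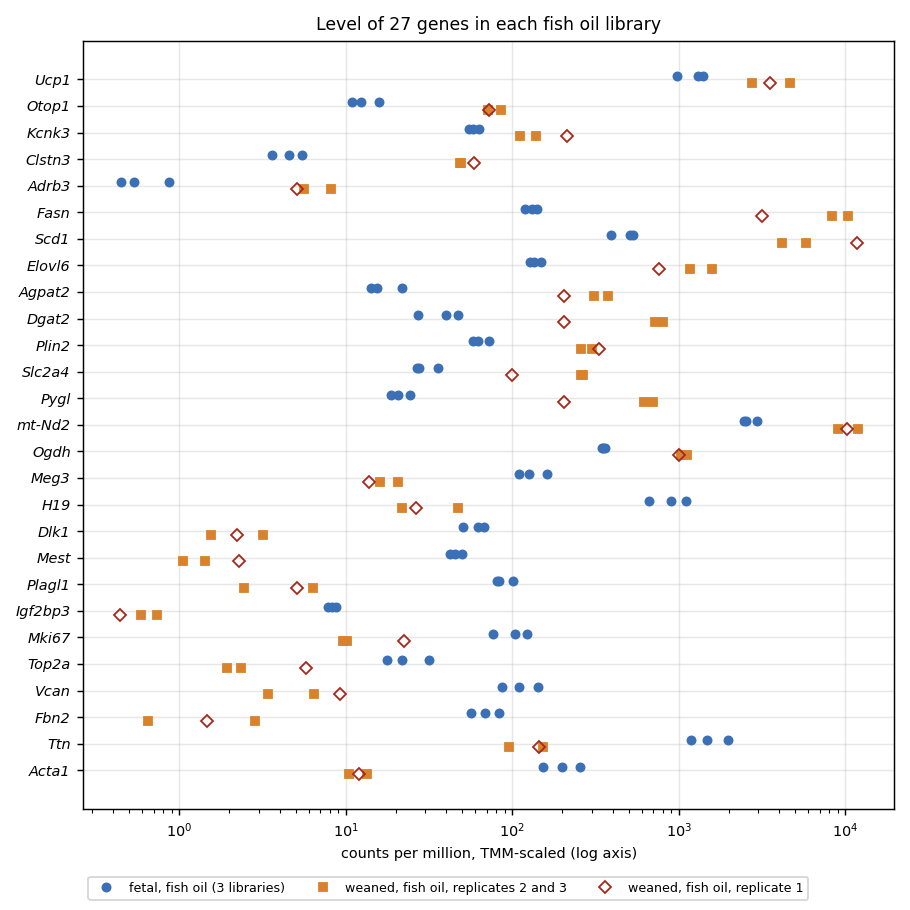
CPM (TMM-scaled, log axis) of 27 genes in the 3 fetal (blue circles) and 3 weaned (orange squares, with replicate 1 as open red diamonds) fish oil libraries, 1 symbol a library. The fetal and weaned libraries do not overlap for any of these genes, and weaned replicate 1 sits apart from the other weaned libraries in Fasn, Scd1, Dgat2, Slc2a4 and Pygl.

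Genes of the adrenergic pathway were called about as often as genes at large, of which 35% were called, 18.5% higher and 16.6% lower. Of 30 genes of adrenergic and cAMP signalling, 27 were tested; 7 rose and 2 fell, with a median of 0.11 with TMM; by library size alone 4 rose and 11 fell, with a median of -0.486; 8 rose and 5 fell without weaned replicate 1, and 4 to 6 rose without any 1 of the other libraries. Adrb3, the beta-3 receptor of adipocytes, read 0.445, 0.537 and 0.861 CPM in the fetal and 5.07, 8.18 and 5.59 CPM in the weaned libraries (log2 change 3.38, adjusted p = 3.91e-04). Adrb1, the beta-1 receptor, went from 2.67, 2.09 and 1.88 CPM to 10.7, 23 and 15.8 CPM (log2 change 2.87, adjusted p = 5.51e-04). Both receptors were higher in every weaned library. Rgs2, which damps signalling from G protein-coupled receptors, fell from 190.0, 238 and 229.9 CPM to 7.79, 12.7 and 30.1 CPM (log2 change -3.71, adjusted p = 9.13e-04).

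Of 19 tested genes of heat-making and ATP-using cycles that do not need Ucp1, 11 rose and 4 fell (7 and 6 by library size alone), and 7 to 12 rose when any 1 library was left out. Ckb, the creatine kinase of the futile creatine cycle, went from 2.22, 2.04 and 2.5 CPM to 25.1, 17.9 and 15.6 CPM (log2 change 3.11, adjusted p = 1.45e-04), Alpl, a phosphatase of the same cycle, changed by 2.64 (adjusted p = 7.09e-04) and Atp2a2, the calcium pump SERCA2, by 1.32 (adjusted p = 1.77e-04). Those that fell included Ckmt2 (-2.46, adjusted p = 0.00142), Atp2a1 (-1.89, adjusted p = 4.62e-04) and Ryr1 (-2.72, adjusted p = 1.77e-04), which are forms of striated muscle; they fell beside the muscle markers, whose sums are given with that list. Gpd2, the mitochondrial arm of the glycerol phosphate shuttle, read 123, 114 and 109.7 CPM in the fetal and 411, 657 and 838 CPM in the weaned libraries (log2 change 2.45, adjusted p = 4.21e-04).

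Fatty acid synthesis held the highest median change of the lists with at least 10 members tested. Of 31 members 30 were tested: 23 rose, 22 of them at least 2-fold, and 1 fell, with a median of 2.71. The count of higher members was 25 without weaned replicate 1 and 17 to 20 without any 1 of the other libraries. Summed over the list, fetal libraries held 1897, 1671 and 1942 CPM and weaned libraries 17610, 22880 and 27800 CPM. Fasn, the fatty acid synthase, read 131, 119.7 and 140.4 CPM in the fetal and 3160.0, 8274 and 10307 CPM in the weaned libraries, a 55.3-fold rise (log2 change 5.79 ± 0.44, adjusted p = 1.63e-04). Elovl6, which lengthens palmitate, read 148, 136 and 127 CPM in the fetal and 757, 1169.7 and 1577 CPM in the weaned libraries (log2 change 3.09, adjusted p = 2.24e-04). Scd1, the desaturase that makes oleate, went from 530.3, 391 and 512 CPM to 11760.0, 4186 and 5771 CPM (log2 change 3.92, adjusted p = 4.38e-04). For these 3 enzymes every weaned library lay above every fetal one.

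The steps that feed the synthase rose too. Acaca, the acetyl-CoA carboxylase that commits carbon to fat, read 42.8, 34.7 and 43.2 CPM in the fetal and 152, 1137 and 1221 CPM in the weaned libraries (log2 change 4.37, adjusted p = 0.0027). Aacs, which activates acetoacetate for lipid synthesis, went from 6.82, 6.02 and 6.73 CPM to 79.3, 187 and 199 CPM (log2 change 4.56, adjusted p = 1.71e-04). Me1, a source of NADPH, rose by 3.08 (adjusted p = 7.09e-04) and Slc25a1, which carries citrate out of mitochondria, by 3.13 (adjusted p = 0.00809). The sugar-responsive factor Mlxipl rose by 2.90 (adjusted p = 0.00272). Elovl3, an elongase known for its induction in brown fat by cold, was at 1.14, 0.537 and 0.157 CPM in the fetal and 129, 17.9 and 11.1 CPM in the weaned libraries (log2 change 6.30, adjusted p = 0.00479), with weaned replicate 1 far above the other weaned libraries. The delta-5 and delta-6 desaturases of polyunsaturated fats, Fads1 and Fads2, did not pass the test (log2 changes -0.25 and 0.73, adjusted p = 0.585 and 0.0675).

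Promoters of lipogenic genes, from lists that rose, are shown with those of a cell cycle gene, whose list fell, and Ucp1. The share of promoters holding 1 short motif, the CCAAT box, was counted for the lists given below. Triglyceride synthesis, the list that holds Pnpla3, was not among them. The sequences are the 250 bases before the start of transcription in RefSeq, build GRCm38.p6, read 5′ to 3′ on the gene's strand, and none overlaps an annotated exon in GENCODE. Of 7 motifs searched on both strands, capitals mark each match. These were the CCAAT box, the E-box CACGTG, the sterol regulatory element TCACNCCAC, the estrogen-related receptor element TCAAGGTCA, the cell cycle homology region TTTGAA, the NRF1 element and the cAMP response element TGACGTCA.
Fasn, chr11:120824548-120824797, minus strand: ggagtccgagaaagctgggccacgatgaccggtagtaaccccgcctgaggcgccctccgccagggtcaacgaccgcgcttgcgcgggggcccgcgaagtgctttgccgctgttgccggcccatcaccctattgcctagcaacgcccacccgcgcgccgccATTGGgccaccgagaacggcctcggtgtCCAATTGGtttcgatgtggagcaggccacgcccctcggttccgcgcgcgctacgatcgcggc
Slc25a1, chr16:17928220-17928469, minus strand: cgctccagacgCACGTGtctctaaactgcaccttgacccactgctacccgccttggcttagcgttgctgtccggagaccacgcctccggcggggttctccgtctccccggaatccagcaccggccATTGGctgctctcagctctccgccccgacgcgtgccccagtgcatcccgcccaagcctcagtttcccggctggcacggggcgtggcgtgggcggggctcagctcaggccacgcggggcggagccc
Pnpla3, chr15:84167566-84167815, plus strand: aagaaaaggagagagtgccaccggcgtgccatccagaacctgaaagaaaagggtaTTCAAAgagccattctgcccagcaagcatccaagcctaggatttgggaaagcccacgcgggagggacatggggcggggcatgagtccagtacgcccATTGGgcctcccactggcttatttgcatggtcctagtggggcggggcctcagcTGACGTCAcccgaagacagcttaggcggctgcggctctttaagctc
Mki67, chr7:135716380-135716629, minus strand: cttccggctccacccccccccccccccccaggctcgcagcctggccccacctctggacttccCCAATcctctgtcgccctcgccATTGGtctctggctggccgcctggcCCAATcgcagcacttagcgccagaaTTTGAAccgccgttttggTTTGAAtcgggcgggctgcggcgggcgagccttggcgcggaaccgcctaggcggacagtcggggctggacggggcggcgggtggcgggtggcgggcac
Ucp1, chr8:83290098-83290347, plus strand: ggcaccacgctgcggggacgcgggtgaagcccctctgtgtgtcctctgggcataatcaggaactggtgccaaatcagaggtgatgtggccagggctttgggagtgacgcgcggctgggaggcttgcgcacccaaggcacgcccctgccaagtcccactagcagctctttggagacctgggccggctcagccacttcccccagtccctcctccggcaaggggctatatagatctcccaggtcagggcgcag

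Counted from the start of transcription, CCAAT boxes began at -90, -62 and -59 in Fasn, the last pair overlapping, at -125 in Slc25a1, at -99 in Pnpla3 and at -188, -166 and -141 in Mki67. Mki67 also held the cell cycle homology region at -116 and -98, Pnpla3 the same region at -195 and the cAMP response element at -46, and Slc25a1 the E-box at -239. None of the 7 motifs was in the Ucp1 window. Over all 27025 genes with a RefSeq promoter, 37.5% held a CCAAT box in these 250 bases. On the lists the share was 16 of 26 genes (61.5%) for fatty acid synthesis, 16 of 17 (94.1%) for cholesterol synthesis, 22 of 26 (84.6%) for proliferation and 11 of 26 (42.3%) for thermogenesis. It was also 61.5% for the tricarboxylic acid cycle, 41.7% for fatty acid oxidation, 39.1% for imprinted and fetal growth genes and 31.2% for complex I. The E-box was in 5 of 26 fatty acid synthesis promoters (19.2%) and in 6.86% of all promoters; on the other lists its share was 23.5% for cholesterol synthesis, 17.4% for imprinted and fetal growth genes, 15.4% for the tricarboxylic acid cycle, 11.5% for thermogenesis, 6.25% for complex I, 3.85% for proliferation and 0 for fatty acid oxidation. These are counts of a few promoters a list, and the cell cycle homology region was in 8 of 26 proliferation promoters (30.8%) and in 18.3% of all. The other motifs were in 0.42% to 1.77% of all promoters and in at most 1 of the 26 fatty acid synthesis promoters. The share with a CCAAT box was above that of all promoters both on lists that rose and on a list that fell; a match describes letters and is not evidence of a site in use.

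Lipid storage and release genes rose with synthesis. For triglyceride synthesis 9 of 18 members tested rose and none fell by the edgeR test, and for lipolysis and the lipid droplet 13 of 18 rose and none fell. No member of either list was lower at an unadjusted p of 0.05, by DESeq2 or by limma-voom; without weaned replicate 1, 2 of the first and 1 of the second were lower. By library size alone 6 rose and 3 fell on the first list, and 8 rose and 3 fell on the second. Agpat2, an acyltransferase of triglyceride synthesis, read 21.7, 15.4 and 14.2 CPM in the fetal and 203, 374 and 310.3 CPM in the weaned libraries (log2 change 4.10, adjusted p = 9.24e-05). Dgat2, the last step of that pathway, went from 46.9, 27.2 and 40.0 CPM to 204, 806 and 714 CPM (log2 change 3.91, adjusted p = 0.00113). Pnpla3, a droplet-bound lipase, was at 0.643, 0.752 and 0.391 CPM in the fetal and 4.12, 64.5 and 54.3 CPM in the weaned libraries (log2 change 6.03, adjusted p = 0.00336). All weaned values of these genes lay above all fetal ones.

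On the droplet side, Plin2, a droplet coat protein, read 72.3, 61.8 and 58.3 CPM in the fetal and 330.0, 300.3 and 259.6 CPM in the weaned libraries (log2 change 2.20, adjusted p = 9.24e-05). G0s2, an inhibitor of adipose triglyceride lipase, went from 13.5, 10.2 and 18.6 CPM to 96, 215 and 298 CPM (log2 change 3.84, adjusted p = 6.33e-04). Lipe, hormone-sensitive lipase, rose by 0.71 (adjusted p = 0.00374). Of 22 genes of fatty acid uptake and binding, 12 rose and 1 fell (5 and 1 by library size alone); 18 rose without weaned replicate 1 and 7 to 15 without any 1 of the other libraries. Fabp3, a fatty acid binding protein of heart and brown fat, read 3.36, 3.76 and 5.56 CPM in the fetal and 139.9, 64.2 and 35.5 CPM in the weaned libraries (log2 change 4.26, adjusted p = 9.29e-04). Fabp4, the adipocyte form, rose by 0.68 (adjusted p = 0.00586), and Scarb1, a lipoprotein receptor, changed by -0.74 (adjusted p = 0.0121; 0.0578 and 0.053 without fetal replicates 1 and 2). Lpl, lipoprotein lipase, read 950.4, 947 and 987 CPM in the fetal and 3008, 1445 and 1150.1 CPM in the weaned libraries; its log2 change was 0.96 (adjusted p = 0.0523) with all 6 libraries, 0.43 (adjusted p = 0.00562) without weaned replicate 1 and 1.22 (adjusted p = 0.0223) without weaned replicate 3.

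Cholesterol synthesis followed with smaller changes. Of 23 members tested 10 rose and none fell, with a median of 0.71, and none was lower at an unadjusted p of 0.05, by DESeq2 or by limma-voom. The count was 19 of 24 without weaned replicate 1, and without any 1 of the other libraries it was 5 to 8; by library size alone 6 rose and 1 fell. Sc5d, a late step in sterol synthesis, read 4.15, 3.49 and 3.13 CPM in the fetal and 27.4, 95.4 and 79.1 CPM in the weaned libraries (log2 change 4.21, adjusted p = 5.55e-04). For this gene weaned replicate 1 was the lowest weaned library and still above the fetal ones. Among 23 tested genes for receptors and enzymes of polyunsaturated fats, the components of fish oil, 6 rose and 1 fell, with a median of 0.205, and 10 of 26 rose without weaned replicate 1. By library size alone 3 rose and 11 fell, with a median of -0.403. With TMM, 18.5% of all genes tested rose and 16.6% fell. Ffar4, a receptor for omega-3 fatty acids, read 2.67, 2.36 and 2.43 CPM in the fetal and 8.16, 5.91 and 7.43 CPM in the weaned libraries (log2 change 1.52, adjusted p = 0.00143), and Elovl5, an elongase of polyunsaturated fats, rose by 0.93 (adjusted p = 0.00222).

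The median change was larger for transcripts made inside mitochondria than for nuclear subunits of the same complexes. Of 13 mitochondrially encoded proteins 8 were tested and all 8 rose, with a median of 1.41; the other 5, among them mt-Co2 and mt-Co3, did not pass the filter. Mitochondrial genes have near-identical copies in the nuclear genome, so their values are uncertain where reads were split. By library size alone 5 of the 8 rose and 0 fell, with a median of 0.798. Without weaned replicate 1 the 8 were again called, and 7 or 8 were without any 1 of the other libraries. mt-Nd2, a complex I subunit, read 2930.1, 2515 and 2446 CPM in the fetal and 10243, 9061 and 11839 CPM in the weaned libraries (log2 change 1.98, adjusted p = 1.73e-04). mt-Cytb, of complex III, went from 5334, 5185 and 5129 CPM to 13276, 13095 and 13936 CPM (log2 change 1.36, adjusted p = 2.89e-04). The smallest rise was in mt-Co1, of complex IV (0.61, adjusted p = 0.00766; 0.0516 and 0.0506 without fetal replicates 2 and 3).

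For nuclear subunits the direction depended on the scaling and the count of calls on weaned replicate 1. The shares over all genes tested were 18.5% higher and 16.6% lower. With TMM, 8 of 36 complex I subunits rose and 1 fell (median 0.29), 5 of 10 in complex III rose (median 0.415), 3 of 16 in complex IV rose and 1 fell (median 0.06), and 2 of 16 in the ATP synthase rose and 1 fell (median 0.12). Scaled by library size alone, these medians were -0.334, -0.202, -0.56 and -0.499. Without weaned replicate 1 the higher counts were 29 of 36, 9 of 10, 4 of 16 and 8 of 17, and without any 1 of the other libraries they were 3 to 5, 0 to 1, 0 to 3 and 0 to 1. Ndufab1, the mitochondrial acyl carrier protein of complex I, read 28.6, 26.4 and 25.4 CPM in the fetal and 46.2, 76.9 and 80.9 CPM in the weaned libraries (log2 change 1.34, adjusted p = 0.00255). Cox6b2, a complex IV isoform, fell from 5.83, 5.16 and 5.4 CPM to 1.76, 1.7 and 2.09 CPM (log2 change -1.56, adjusted p = 0.00125), as did Atpif1, the inhibitor of the ATP synthase (-1.35, adjusted p = 0.00267).

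**Figure D3:**
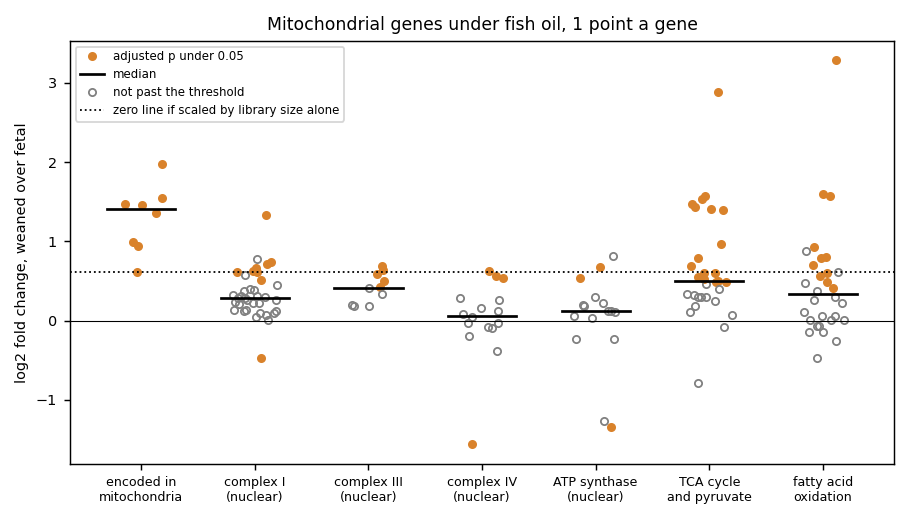
Log2 fold change, weaned over fetal under fish oil, of each tested gene of 7 mitochondrial lists (filled orange, adjusted p under 0.05; open grey, not past the threshold; bar, median); the dotted line marks where no change would lie if libraries were scaled by size alone, and points are spread sideways only to be seen. The mitochondrially encoded genes, with a median of 1.41, all lie at or above the dotted line, and most nuclear subunits lie below it.

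The matrix enzymes that burn pyruvate and fat rose in part. Of 30 genes of the tricarboxylic acid cycle and pyruvate entry 17 rose and none fell with TMM (median 0.49), and 7 rose and 5 fell by library size alone (median -0.119); with TMM none was lower at an unadjusted p of 0.05, by DESeq2 or by limma-voom. Leaving out weaned replicate 1 gave 26 higher and 1 lower, and without any 1 of the other libraries 8 to 15 rose. Ogdh, the 2-oxoglutarate dehydrogenase, read 362, 346 and 351 CPM in the fetal and 1003, 1117 and 1036 CPM in the weaned libraries (log2 change 1.57, adjusted p = 1.34e-04). Mpc1, of the mitochondrial pyruvate carrier, went from 4.1, 5.85 and 5.4 CPM to 24.9, 48.1 and 40.6 CPM (log2 change 2.88, adjusted p = 3.26e-04). Each of these was higher in all 3 weaned libraries. Of 30 fatty acid oxidation genes 11 rose and none fell with TMM (median 0.335), and 3 rose and 11 fell by library size alone (median -0.286); with TMM none was lower at an unadjusted p of 0.05, by DESeq2 or by limma-voom. The higher count was 17, with 2 lower, without weaned replicate 1, and 7 to 10 without any 1 of the other libraries. Cpt2, of the carnitine shuttle, read 104, 94.3 and 88.1 CPM in the fetal and 285, 266 and 303 CPM in the weaned libraries (log2 change 1.57, adjusted p = 1.72e-04), whereas Cpt1b, the outer membrane step, had a change of -0.08 (adjusted p = 0.783).

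Many genes of sugar and amino acid use rose as well. Of 25 tested genes of glucose uptake and glycolysis 17 rose and 2 fell, with a median of 1.13; by library size alone 12 rose and 5 fell. Slc2a4, the insulin-responsive glucose carrier GLUT4, read 27.3, 26.8 and 35.6 CPM in the fetal and 99.5, 260.2 and 265 CPM in the weaned libraries (log2 change 2.79, adjusted p = 0.00113). Hk2, hexokinase 2, went from 99.3, 86.9 and 112 CPM to 227, 809 and 687 CPM (log2 change 2.52, adjusted p = 0.00314). Pygl, a glycogen phosphorylase, went from 20.6, 18.8 and 24.3 CPM to 205, 622 and 703 CPM (log2 change 4.58, adjusted p = 3.91e-04). In these 3 genes weaned replicate 1 was the lowest weaned library. The members that fell were Eno3 (-2.30, adjusted p = 6.04e-04) and Pygm (-1.88, adjusted p = 0.00143), the muscle forms of enolase and glycogen phosphorylase. Of 20 genes of branched chain amino acid breakdown 14 rose and none fell, and none was lower at an unadjusted p of 0.05, by DESeq2 or by limma-voom, while 2 were without weaned replicate 1 and 2 by library size alone, where 7 rose; Ivd, isovaleryl-CoA dehydrogenase, rose by 1.75 (adjusted p = 5.51e-04) and Pcca, a propionyl-CoA carboxylase subunit, by 1.70 (adjusted p = 2.89e-04).

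Pairs of related isoforms with fetal or adult, or brown fat or general, members were compared within each pair. Of 30 members tested 12 rose and 4 fell with TMM, and 8 rose and 12 fell by library size alone. With TMM, 18.5% of all genes tested rose and 16.6% fell. Cox7a1, the heart and brown fat form of a complex IV subunit, read 77.3, 68.7 and 67.7 CPM in the fetal and 87.7, 135 and 110.1 CPM in the weaned libraries (log2 change 0.63, adjusted p = 0.0207; 0.0537, 0.0894 and 0.0872 without fetal replicates 1, 2 and 3), and Cox7a2, the general form, had a change of -0.10 (adjusted p = 0.595). Cox8b, another heart and brown fat form, changed by 0.56 (adjusted p = 0.0107; 0.0705 and 0.0528 without fetal replicates 2 and 3) and its general partner Cox8a had -0.09 (adjusted p = 0.587); by library size alone the change of Cox8b was -0.058. Among glycolytic pairs, Hk2 rose and Hk1, the form of most tissues, had a change of -0.03 (adjusted p = 0.91). Pfkp, the platelet phosphofructokinase, rose from 21.4, 18.3 and 19.7 CPM to 95.7, 115 and 132 CPM (log2 change 2.52, adjusted p = 7.35e-05), and the muscle form Pfkm had 0.49 (adjusted p = 0.193) with all 6 libraries and 0.77 (adjusted p = 0.00131) without weaned replicate 1. Eno1, the general enolase, rose by 1.86 (adjusted p = 0.00639) where Eno3 fell, and Pgam1, the general phosphoglycerate mutase, rose by 1.13 (adjusted p = 0.00377) where the muscle form Pgam2 fell by 3.76 (adjusted p = 5.86e-04). Bcat2, the mitochondrial transaminase of branched chain amino acids, rose by 1.24 (adjusted p = 3.82e-04), and the cytosolic Bcat1 had -1.10 (adjusted p = 0.245) with all 6 libraries and -1.95 (adjusted p = 0.0413) without weaned replicate 1. Bcat1 read only 1.24, 1.4 and 1.25 CPM in the fetal and 1.1, 0 and 0.668 CPM in the weaned libraries, so its change rests on few reads. In other pairs neither member passed with all 6 libraries. Cox4i1 and Cox4i2 had -0.04 and 0.08 (adjusted p = 0.873 and 0.88), and Cpt1a and Cpt1b had -0.47 and -0.08 (adjusted p = 0.4 and 0.783). Without weaned replicate 1, Cpt1a had -1.15 (adjusted p = 0.00173). Differences within a pair were not tested.

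Of 26 oxidative stress response genes tested 16 rose and 1 fell, with a median of 0.79 (8 and 2 by library size alone); Gpx1, a glutathione peroxidase, read 9.74, 9.94 and 9.94 CPM in the fetal and 46.3, 48.6 and 37.1 CPM in the weaned libraries (log2 change 2.15, adjusted p = 9.49e-05). Of 29 genes of antigen presentation and interferon response 12 rose and 3 fell, and 18 rose and 2 fell of 30 without weaned replicate 1; by library size alone 9 rose and 9 fell. The class I heavy chain H2-K1 went from 8.3, 5.96 and 7.04 CPM to 20.1, 37.6 and 38 CPM (log2 change 2.16, adjusted p = 9.34e-04). Genes of this family are similar in sequence, so reads may be split among them. Ifi27, an interferon-inducible gene, rose by 1.39 (adjusted p = 0.00414). Of 21 macrophage and myeloid genes tested 1 rose, 6 fell and 14 did not pass, with a median of -0.132. By library size alone 0 rose and 9 fell. Over all genes tested, 18.5% rose and 16.6% fell. Mrc1, the macrophage mannose receptor, fell from 47, 51 and 55.4 CPM to 24.3, 17.4 and 22.2 CPM (log2 change -1.27, adjusted p = 9.72e-04). Lyz2, a myeloid lysozyme gene, went the other way (log2 change 1.09, adjusted p = 0.00273). Of 7 mast cell genes tested 6 fell and 1 rose. Cpa3, a mast cell protease, read 15.5, 22.9 and 28.3 CPM in the fetal and 2.06, 0.729 and 2.67 CPM in the weaned libraries (log2 change -3.61, adjusted p = 6.33e-04). The 1 that rose was Kit, the receptor for stem cell factor, at 6.57, 5.37 and 9.08 CPM in the fetal and 4.12, 77.5 and 42.2 CPM in the weaned libraries (log2 change 2.56, adjusted p = 0.0409); of the 6 fits that left out 1 library it was called only without weaned replicate 1, and the others gave an adjusted p of 0.0844 to 0.134. Summed over the list, Kit included, fetal libraries held 45.33, 52.8 and 73.42 CPM and weaned libraries 11.18, 80.61 and 48.49 CPM, so the sums overlapped. In bulk tissue, fewer cells of a type and less RNA per cell cannot be told apart.

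Markers of skeletal muscle, which lies beside the depot, were lower at weaning. Of 37 muscle genes tested 31 fell, each at least 2-fold, and 2 rose, with a median of -2.68; of 11 developing muscle genes tested 9 fell. Summed over the muscle list, fetal libraries held 2038, 2583 and 3447 CPM and weaned libraries 296.5, 369.1 and 282.3 CPM. The order of the fetal libraries, replicate 3 highest and replicate 1 lowest, was shared by H19, Dlk1, Mki67 and Vcan. It was not shared by all genes that fell: in Mest and in the muscle genes Myh3 and Actc1 replicate 2 was lowest. The part of muscle RNA in the falls of growth, cell division and matrix genes was not tested. Ttn, the giant sarcomere protein, read 1188, 1483 and 1970.0 CPM in the fetal and 146, 154 and 96 CPM in the weaned libraries (log2 change -3.56, adjusted p = 1.40e-04), and Acta1, skeletal actin, changed by -4.09 (adjusted p = 4.47e-05). Myh3, the embryonic myosin, went from 68.4, 57.1 and 126 CPM to 3.38, 0.486 and 0.417 CPM (log2 change -5.83, adjusted p = 7.85e-04). Myh4, the fast adult myosin, ran the other way, from 4.79, 6.88 and 1.72 CPM to 30.1, 48 and 32.7 CPM (log2 change 3.01, adjusted p = 0.00149). Myogenic factors Myod1, Myf5 and Pax7 did not pass the filter on low counts.

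Many fetal growth genes fell, beside the muscle markers just described. Of 30 imprinted and fetal growth genes 24 were tested: 13 fell, each at least 2-fold, 11 did not pass and none rose, with a median of -2.1. At an unadjusted p of 0.05, 1 was higher, and none was by DESeq2 or limma-voom. Summed over the list, fetal libraries held 4490, 4744 and 5334 CPM and weaned libraries 4211, 4024 and 2743 CPM. Without weaned replicate 1 the list had 19 lower, and without any 1 of the other libraries 12 to 14. H19, the maternally expressed noncoding RNA beside Igf2, read 662, 892 and 1109.9 CPM in the fetal and 26.5, 21.7 and 47.2 CPM in the weaned libraries, 28.1-fold less (log2 change -4.81 ± 0.35, adjusted p = 1.34e-04). Igf2, the fetal insulin-like growth factor, went from 14.5, 19.4 and 22.3 CPM to 1.25, 0.648 and 0.668 CPM (log2 change -4.43, adjusted p = 9.24e-05). Both genes of this imprinted pair were lower in every weaned library. Igf1, the growth factor that takes over after birth in many tissues, also fell in this tissue, from 52.1, 53.6 and 72.6 CPM to 13.6, 24.5 and 33.7 CPM (log2 change -1.32, adjusted p = 0.0118; 0.053 without fetal replicate 3).

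A second imprinted cluster moved in the same direction. Dlk1, which holds preadipocytes back from differentiation, read 50.8, 61.9 and 67.2 CPM in the fetal and 2.21, 1.54 and 3.17 CPM in the weaned libraries (log2 change -4.70, adjusted p = 4.45e-05). Meg3, the noncoding RNA of the same cluster, went from 109.6, 125 and 161 CPM to 13.8, 16.1 and 20.6 CPM (log2 change -2.98, adjusted p = 1.10e-04), and Rtl1, a retrotransposon-derived gene there, changed by -5.49 (adjusted p = 6.53e-05). Mest, linked to fat cell size, went from 45.4, 42.1 and 50.1 CPM to 2.28, 1.05 and 1.42 CPM (log2 change -4.84, adjusted p = 4.45e-05). The growth inhibitor Grb10, which binds the insulin receptor, had a log2 change of -2.15 (adjusted p = 2.93e-04). Igf2bp3, a fetal RNA-binding protein, went from 7.81, 8.22 and 8.69 CPM to 0.441, 0.729 and 0.584 CPM (log2 change -3.81, adjusted p = 8.39e-05). Peg3, a paternally expressed zinc finger gene, did not pass the test: it read 287, 365 and 344 CPM in the fetal and 810.2, 44.6 and 43.4 CPM in the weaned libraries, a log2 change of -0.15 (adjusted p = 0.922) and, without weaned replicate 1, of -2.92 (adjusted p = 4.60e-08).

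Cell division genes fell in the same libraries as the muscle markers. Of 32 proliferation genes tested 25 fell, 23 of them at least 2-fold, and none rose, with a median of -2.17, and none was higher at an unadjusted p of 0.05, by DESeq2 or by limma-voom. Leaving out any 1 library gave 22 to 25 lower members. Summed over the list, fetal libraries held 212.9, 265.4 and 311.5 CPM and weaned libraries 87.94, 58.49 and 62.26 CPM. Mki67, the marker of cycling cells, read 76.6, 103 and 123 CPM in the fetal and 22.4, 9.56 and 10.1 CPM in the weaned libraries (log2 change -2.84, adjusted p = 0.00101). Top2a, the topoisomerase of dividing cells, went from 17.7, 21.7 and 31.5 CPM to 5.74, 1.94 and 2.34 CPM (log2 change -2.80, adjusted p = 0.00186). Weaned replicate 1 was the highest weaned library for both and lay below all fetal libraries. Among 29 histone and chromatin genes 11 fell and none rose, and none was higher at an unadjusted p of 0.05, by DESeq2 or by limma-voom. The number lower was 13 without weaned replicate 1 and 6 to 9 without any 1 of the other libraries; Tet2, which oxidises methylated cytosine, changed by -1.47 (adjusted p = 3.97e-04) and Ezh2, the Polycomb methyltransferase, by -1.20 (adjusted p = 0.0011).

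Matrix genes fell, and more progenitor genes fell than rose, beside 18.5% of all genes tested that rose and 16.6% that fell. Of 32 collagen and matrix genes tested 18 fell and 2 rose, with a median of -1.01; without weaned replicate 1, 24 of 33 fell. Fbn2, the fetal fibrillin of elastic microfibrils, read 56.2, 68.5 and 83.4 CPM in the fetal and 1.47, 0.648 and 2.84 CPM in the weaned libraries (log2 change -5.40, adjusted p = 1.48e-04). Vcan, the proteoglycan versican, went from 86.8, 109 and 142 CPM to 9.19, 3.4 and 6.43 CPM (log2 change -4.15, adjusted p = 2.57e-04), and Fbn1, the other fibrillin, changed by -1.58 (adjusted p = 0.005). Loxl1, which crosslinks elastin, rose by 1.56 (adjusted p = 0.00295). Of 30 progenitor and preadipocyte genes tested 10 fell and 5 rose, with a median of -0.233. By library size alone 18 fell and 2 rose, with a median of -0.841. Leaving out any 1 library gave 7 to 12 lower and 3 to 6 higher. Cd34, a progenitor surface marker, fell from 22.6, 21.6 and 23.1 CPM to 9.78, 8.59 and 10.3 CPM (log2 change -1.24, adjusted p = 5.45e-04) and Wnt5a, a secreted Wnt ligand, rose by 1.66 (adjusted p = 3.50e-04).

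Of 25 endothelial genes 4 rose, a smaller share than the 18.5% of all genes tested, and 1 fell. Without weaned replicate 1 the counts were 7 and 8, and by library size alone 1 rose and 13 fell. Flt1, a receptor for vascular endothelial growth factor, read 65.9, 54 and 53.2 CPM in the fetal and 177, 124 and 128 CPM in the weaned libraries (log2 change 1.30, adjusted p = 0.00143). The member that fell was Plvap, a protein of fenestrated endothelium, from 13.2, 13.3 and 14.6 CPM to 4.56, 2.51 and 5.09 CPM (log2 change -1.76, adjusted p = 0.00166). Of 14 smooth muscle and pericyte genes tested 3 rose, 1 fell and 10 did not pass; by library size alone 2 rose and 5 fell, with a median of -0.311 in place of 0.285. Mcam, an adhesion molecule of vessel walls, was the 1 that fell (-0.96, adjusted p = 0.0148; 0.0567 and 0.0616 without fetal replicates 1 and 3). Rgs5, a pericyte marker, went from 40.0, 35.6 and 39.8 CPM to 307, 275 and 287 CPM (log2 change 2.91, adjusted p = 2.54e-05), with little spread at either age. Of 14 adult erythroid genes tested 6 rose and 2 fell (5 and 5 by library size alone). Hbb-bs, an adult beta globin, read 13.9, 11.9 and 10.5 CPM in the fetal and 99.1, 46 and 52.7 CPM in the weaned libraries (log2 change 2.44, adjusted p = 9.65e-04), with reads possibly shared with its near copy Hbb-bt. Tfrc, the transferrin receptor, fell from 423, 603 and 728 CPM to 27.6, 159.5 and 94.9 CPM (log2 change -2.65, adjusted p = 0.00811).

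Hormone and clock genes changed in part, beside 18.5% of all genes tested that rose and 16.6% that fell. Of 27 genes of thyroid, glucocorticoid and insulin signalling tested 7 rose and 4 fell, and without weaned replicate 1, 12 of 28 rose and 11 fell; 2 to 5 rose without any 1 of the other libraries, and by library size alone 3 rose and 10 fell. Thrb, a thyroid hormone receptor, read 18.8, 17 and 18.2 CPM in the fetal and 39.2, 47.1 and 60.5 CPM in the weaned libraries (log2 change 1.43, adjusted p = 8.49e-04). Igfbp5, an insulin-like growth factor binding protein, fell from 180.4, 182 and 160.3 CPM to 36.6, 83.1 and 82.3 CPM (log2 change -1.38, adjusted p = 0.00787). Of 20 clock genes 8 rose and none fell, with 1 lower at an unadjusted p of 0.05 and none by DESeq2 or limma-voom; without weaned replicate 1, 9 rose and 6 fell. By library size alone 7 clock genes rose and 7 fell, with a median of -0.212 in place of 0.398. Dbp, a clock output factor, went from 0.939, 1.5 and 1.33 CPM to 4.71, 9.56 and 9.85 CPM (log2 change 2.67, adjusted p = 0.0012) and Tef, its relative, from 32.5, 41.5 and 40.7 CPM to 79.9, 182 and 138 CPM (log2 change 1.80, adjusted p = 0.00246). The labels give no hour of collection. Lep, the satiety hormone leptin, read 0.643, 0.43 and 0.313 CPM in the fetal and 0.294, 58.3 and 33.3 CPM in the weaned libraries. The fetal libraries and weaned replicate 1 all lay under 1 CPM, on few reads, so their order carries little weight. The adjusted p of Lep was 0.0137 with all 6 libraries, 0.0557, 0.0603 and 0.062 without fetal replicates 1, 2 and 3, and 6.41e-08 without weaned replicate 1.

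Weaned replicate 1 differed from the other weaned libraries in genes of fat synthesis and fuel choice; of those given here, Acly, Srebf1, Pdk4, Irs2 and Angptl4 were chosen after their values were seen. Acly, which cleaves citrate to acetyl-CoA, read 93.5, 82.5 and 99.5 CPM in the fetal and 71.3, 2052 and 2689.5 CPM in the weaned libraries. Srebf1, the lipogenic factor SREBP-1, read 24.3, 19.4 and 24.1 CPM in the fetal and 14.9, 240.1 and 163 CPM in the weaned libraries. Thrsp, a lipogenic nuclear protein, read 315, 267 and 357 CPM in the fetal and 185, 3126 and 3305 CPM in the weaned libraries. In all 3, replicate 1 lay below the fetal libraries and the other weaned libraries far above them. Their log2 changes were 4.12 (adjusted p = 0.0166), 2.62 (adjusted p = 0.0321) and 2.81 (adjusted p = 0.0321). Without weaned replicate 1 they were 4.69, 3.16 and 3.36; without fetal replicate 1, 2 or 3 the adjusted p ran from 0.0656 to 0.0687 for Acly, from 0.096 to 0.108 for Srebf1 and from 0.0979 to 0.108 for Thrsp. Without weaned replicates 2 and 3 the adjusted p was 0.0962 and 0.0764 for Srebf1 and 0.0809 and 0.0884 for Thrsp.

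Other genes of fuel handling also differed between replicate 1 and the other weaned libraries. Pdk4, which shuts off pyruvate dehydrogenase, read 1358, 1339.8 and 1348 CPM in the fetal and 1898, 118 and 317 CPM in the weaned libraries. Pck1, the enzyme of glyceride-glycerol synthesis in fat, read 2138, 1737 and 2151 CPM in the fetal and 2183, 317 and 765 CPM in the weaned libraries. Irs2, an insulin receptor substrate, read 89.6, 103 and 85.6 CPM in the fetal and 88.5, 5.59 and 13.2 CPM in the weaned libraries. Replicate 1 lay above the fetal libraries for Pdk4 and Pck1 and among them for Irs2, and the other weaned libraries lay well below. With all 6 libraries none passed the test (adjusted p = 0.48, 0.26 and 0.226), and without weaned replicate 1 the log2 changes were -2.63 (adjusted p = 7.15e-05), -1.89 (adjusted p = 3.49e-04) and -3.31 (adjusted p = 3.51e-06). Angptl4, an inhibitor of lipoprotein lipase, read 146, 124 and 138 CPM in the fetal and 109.9, 7.86 and 29.5 CPM in the weaned libraries, with replicate 1 closest to the fetal ones (adjusted p = 0.154 with all 6 libraries and 1.30e-04 without replicate 1). Feeding state, litter and batch are not in the labels and their part in this spread was not tested.

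**Figure D4:**
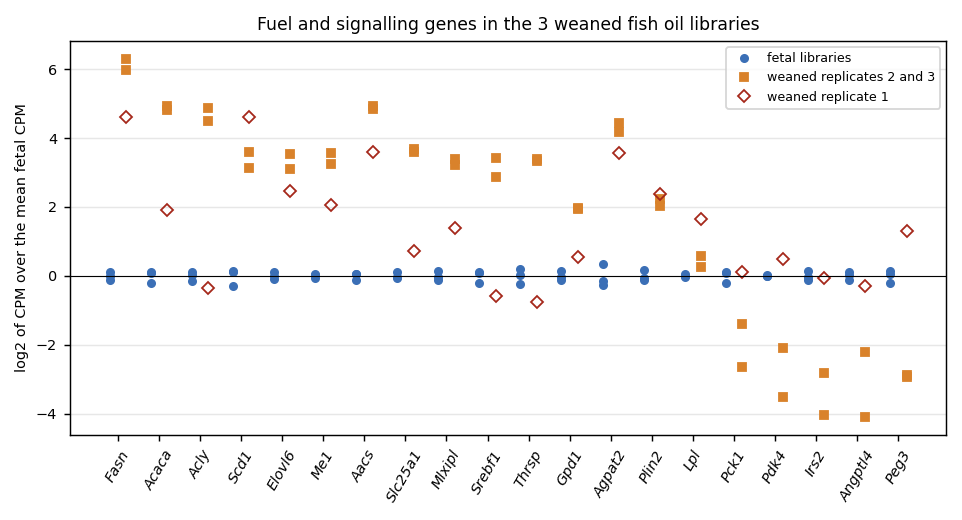
Log2 of each library's CPM over the mean fetal CPM for 20 genes of fat synthesis, fuel use and signalling (blue circles, fetal; orange squares, weaned replicates 2 and 3; open red diamonds, weaned replicate 1; 1 symbol a library). Replicate 1 lies at or below the fetal libraries for Acly, Srebf1 and Thrsp and near or above them for Pck1, Pdk4, Irs2 and Peg3, where the other weaned libraries are lower.

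Whether the change from fetal to weaned depended on the mother's diet was asked with the control-diet libraries, which are not shared between the 2 comparisons. On the control diet 4106 of 13326 genes tested were called (30.8%), 2165 higher (16.2%) and 1941 lower (14.6%); at least 2-fold changes were 7.59% of genes tested on the higher side and 7.06% on the lower. Among 13083 genes tested on both diets, 2843 were called in the same direction on both, 61.5% of the fish oil calls and 70.5% of the control calls. A single gene was called in opposite directions: Per2, a clock repressor, changed by 0.65 under fish oil (adjusted p = 0.0388) and by -0.79 under control (adjusted p = 0.00114). The test of its difference gave an adjusted p of 0.0568, and its fish oil call held in 1 of the 6 fits that left out 1 library, the one without weaned replicate 1; the other 5 gave an adjusted p of 0.0836 to 0.139.

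The difference between the diets' changes passed the test for 5 of 14413 genes (0.0347%), and all 5 had the more positive change under fish oil; 4 of them are described here. Aspg, an asparaginase, read 1.73, 1.77 and 3.21 CPM in fetal and 84.9, 94.6 and 89.8 CPM in weaned fish oil libraries, and 8.64, 7.01 and 5.04 CPM and 69, 54.9 and 73.9 CPM in the control ones. The difference of its log2 changes was 2.11 ± 0.32 (adjusted p = 0.0462). Prodh, the first enzyme of proline breakdown, read 4.15, 5.64 and 5.01 CPM in fetal and 66.3, 72.3 and 78.7 CPM in weaned fish oil libraries, and 12, 14.9 and 16.5 CPM and 62, 60.9 and 36.8 CPM in the control ones (difference 2.00 ± 0.28, adjusted p = 0.0329). In both genes the fetal fish oil libraries lay below all fetal control libraries, and the weaned fish oil libraries above all weaned control ones.

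Snx10, an endosomal sorting protein, read 4.94, 5.53 and 5.56 CPM in fetal and 119.9, 123 and 171 CPM in weaned fish oil libraries, and 17.6, 16.4 and 12.3 CPM and 90.1, 92.2 and 128 CPM in the control ones (difference 1.95 ± 0.27, adjusted p = 0.0329). Setd7, a lysine methyltransferase, read 22.5, 25.2 and 28.4 CPM and 81.5, 96.9 and 98 CPM under fish oil and 48.3, 47.3 and 45.8 CPM and 77.3, 61.9 and 75.9 CPM under control (difference 1.26 ± 0.18, adjusted p = 0.0329). Snx10 and Setd7 were lower in fetal fish oil than in fetal control libraries. At weaning the fish oil libraries lay above all control ones for Setd7, and the diets overlapped for Snx10. The count of genes with a difference was 293 without weaned fish oil replicate 1, 40 without weaned control replicate 3, 2 without fetal fish oil replicate 3, 1 without weaned fish oil replicate 3 and 0 without any 1 of the other 8 libraries. The 1 gene called without weaned fish oil replicate 3 had the less positive change under fish oil, unlike the genes above. At an unadjusted p of 0.05, 1245 genes passed, and DESeq2 called 74, of which 17 had the less positive change under fish oil.

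Lipogenic genes had higher estimates under fish oil without passing the test of the difference. The median change of the fatty acid synthesis list was 2.71 under fish oil and 0.945 under control. Fasn changed by 5.79 under fish oil and 3.15 under control, a difference of 2.64 ± 0.43 (adjusted p = 0.0568); its control libraries read 205, 170.2 and 206 CPM in the fetal and 1856, 1559.8 and 1744 CPM in the weaned group. Agpat2 changed by 4.10 and 1.81 (difference adjusted p = 0.13) and Scd1 by 3.92 and 1.58 (adjusted p = 0.232). Ucp1 rose by 1.57 under fish oil and had a change of 0.58 under control (adjusted p = 0.0991), and the difference of 0.99 ± 0.36 did not pass (adjusted p = 0.477). The growth and muscle lists had medians of -2.1 and -2.68 under fish oil and of -1.78 and -3.16 under control.

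**Figure D5:**
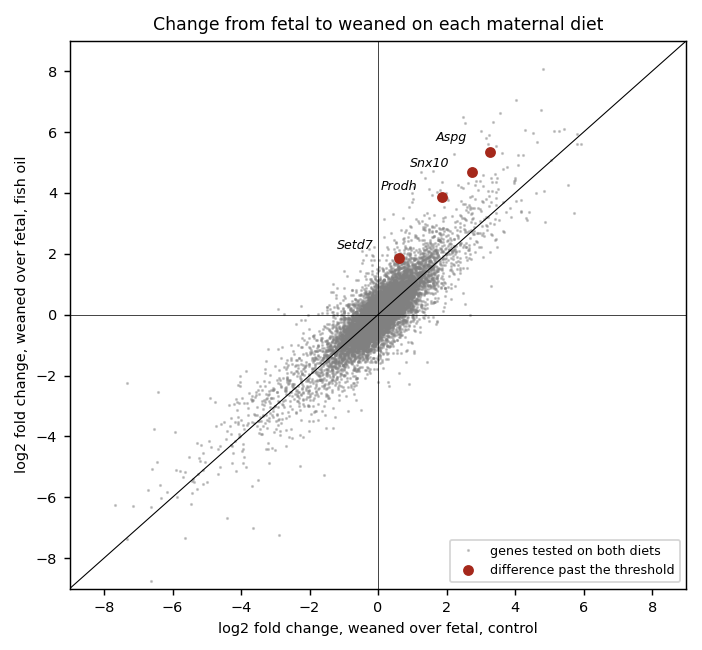
Log2 fold change, weaned over fetal, under control (horizontal) and fish oil (vertical) for each of the 13083 genes tested on both diets (grey), with the line of equal change and 4 genes whose difference passed the test (red). All 4 lie above the line, with Aspg at 3.26 and 5.35.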

How the data were processed

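RNA was measured in 18 libraries; the 3 fetal and 3 weaned fish oil libraries were compared, with the matching control-diet libraries beside them, and the adult libraries entered 1 alternative only. The authors deposited whole-number read counts per gene, of which the column for 1 strand was used; the submitters' processing notes name STAR, Bowtie 0.12.2 and the builds mm8 and mm9, with no role for each. Annotation and counting options are not given in the sources used here. Genes were matched by identifier to symbols; 52083 of 55416 matched, holding 99.97% of counts.

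From the counts, genes passing filterByExpr were scaled by TMM and tested with edgeR 4.0.16 (quasi-likelihood, R 4.3.3) with Benjamini-Hochberg adjustment over all genes tested and a threshold of 0.05. The change under fish oil was fitted on its 6 libraries, that under control on its own 6, and the difference on all 12. CPM shown come from the 12 libraries scaled together. Alternatives were other scalings, filters and tools (DESeq2 1.42.0, limma-voom 3.58.1), a replicate block and leaving out each library. Same-numbered fetal and weaned libraries did not deviate together (correlations 0.0148, -0.00943 and 0.065), so numbers were not used as pairs.

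The genes and lists were chosen with earlier results of these data known. Named were 20 genes in any case; the 15 highest and 15 lowest called changes with no overlap and at least 20 CPM in the higher group; the 4 highest and 4 lowest called members of each list at 5 CPM or more; both members of isoform pairs; and genes whose diet difference passed. Otop1, Kcnk3, Atp2a2, Elovl6, Me1, Slc25a1, Mlxipl, Lipe, Lpl, Meg3, Igf2bp3, Peg3, Ttn, Acta1, Acly, Srebf1, Pdk4, Irs2, Angptl4, Per2, mt-Co1 and mt-Cytb were chosen after their values were seen. Counts on genes numbered 10146103 to 16263663 a fish oil library; 3 libraries a group limit the precision. Promoters came from RefSeq. Some results that the rule names are not reported here.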

Additional observations from a re-analysis of the deposited data

Results flagged for a closer look

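In 5 genes, of which 4 are described here, the change from fetal to weaned differed between the maternal diets by a test of the difference itself, over 12 libraries with edgeR's quasi-likelihood test. Its size, fish oil minus control on the log2 scale, was 2.00 for Prodh, 1.26 for Setd7 and 1.95 for Snx10 (adjusted p = 0.0329 for each) and 2.11 for Aspg (adjusted p = 0.0462). The 5 are 0.0347% of 14413 genes tested, and none was called with a replicate block or without any 1 of 8 of the 12 libraries. Without weaned fish oil replicate 3 as well, 0 genes with a more positive change under fish oil were called.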

How the results depend on the processing

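Under scaling by library size alone, 7661 genes were called under fish oil (928 higher, 6733 lower) and 7821 under control (754 higher, 7067 lower), and small changes turned negative: Atp5a1 -0.088, Cox6a1 -0.36, Cox8b -0.058, Erg -0.22, Gnas -0.51, Hadha -0.36, Mylk -0.21, Ndufa4 -0.083, Slc25a4 -0.16, Slc25a5 -0.44, Sparc -0.17, Uqcrc1 -0.12, Uqcrq -0.038 and Zfp423 -0.0039. Requiring at least 2-fold left 2623 calls (1315 higher, 1308 lower), and a test against 1.5-fold left 1943 (1040 and 903). Leaving out 1 library gave 2635 to 6974 calls under fish oil (1426 to 3616 higher, 1209 to 3358 lower), 2356 to 5365 under control (1284 to 2837 and 1072 to 2528) and 0 to 293 for the difference (0 to 205 and 0 to 88). The change of Dio2 ran from -0.75 without weaned replicate 1 to 1.04 without weaned replicate 2. Of 240 named genes called, 189 were called in all 6 of the fish oil fits that left out 1 library, and 17 named genes not called with all 6 libraries were called without weaned replicate 1. For the difference, all 18 libraries gave 18 calls (14 higher, 4 lower), DESeq2 74 (57 and 17), limma-voom with a spread per group of age and diet 17 (14 and 3), library size alone 8 (all higher) and no filter on low counts 331 (230 and 101). With a replicate block 4013 genes were called under fish oil, sharing 81.4% of the 4786 calls made without it, and 0 for the difference; the numbers do not pair the samples. The causes of these shifts were not tested.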

Other observations

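Peroxisomal and secreted products made further groups not described above. Of 32 peroxisome genes tested 13 rose and none fell by edgeR (1 was lower at an unadjusted p of 0.05, and none by DESeq2 or limma-voom), with a median of 0.52 with TMM and -0.0858 by library size alone. Phyh, which breaks down branched fatty acids, read 221, 209 and 228 CPM in the fetal and 388, 560.3 and 519.8 CPM in the weaned libraries (log2 change 1.15, adjusted p = 0.0014), and Abcd3, a peroxisomal fatty acid carrier, rose by 1.06 (adjusted p = 9.35e-04). Among 33 PPAR target genes tested 16 rose and 1 fell (median 0.56 with TMM, -0.0276 by library size alone); without weaned replicate 1, 18 rose and 7 fell, and 17 peroxisome genes rose and 3 fell. Ucp3, a relative of Ucp1, went from 8.6, 4.89 and 6.42 CPM to 102, 75.7 and 58.3 CPM (log2 change 3.56, adjusted p = 1.75e-04). Every weaned library lay above the fetal ones for these genes.

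Of 23 tested adipokines and secreted factors 9 rose and 6 fell (6 and 7 by library size alone). Apoe, the lipoprotein component, read 73.8, 83.1 and 95.2 CPM in the fetal and 239, 436 and 248 CPM in the weaned libraries (log2 change 1.87, adjusted p = 0.00128), and Pltp, a phospholipid transfer protein, rose by 2.65 (adjusted p = 8.54e-04). Apod, another apolipoprotein, had a log2 change of -1.12 (adjusted p = 0.00668). Among 25 genes of mitochondrial biogenesis and dynamics 8 rose and 1 fell (median 0.09 with TMM, -0.523 by library size alone): Perm1, a muscle and fat regulator of oxidative genes, went from 3.02, 4.83 and 6.11 CPM to 21.3, 46.7 and 21 CPM (log2 change 2.68, adjusted p = 0.0018), and Opa1, which fuses inner membranes, rose by 0.69 (adjusted p = 0.00619). Markers of nerve were few: 6 of 25 were tested and 3 rose, among them Mbp, myelin basic protein, at 4.3, 5 and 4.77 CPM in the fetal and 11.5, 15.2 and 7.68 CPM in the weaned libraries (log2 change 1.28, adjusted p = 0.00683). By library size alone 1 nerve marker rose and 1 fell, and 1 to 4 rose when any 1 library was left out. Over all genes tested, 18.5% rose and 16.6% fell with TMM.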
